A study of Mus musculus with 6 samples.

Results

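Pseudogenes are genomic copies of genes that have lost the ability to encode the original protein. Of the 22298 entries measured in mouse lenses, 1990 carried the type pseudogene, and 188 of these had a mean of at least 1 FPKM over the 6 libraries and are described here. FPKM gives the fragments counted per kilobase of gene, scaled to the mapped reads of the library. The level itself chose the members, so it is given as a description. The lens is a clear tissue of epithelium and crystallin-rich fibre cells, and Fyco1 encodes an adaptor that carries autophagosomes along microtubules. Whole lenses of wild-type (WT) and Fyco1-/- mice, both labelled C57BL/6, were taken at postnatal day 0. Each genotype had 3 biological replicates (A, B and C), each a pool of 10 lenses. The allele behind the Fyco1-/- label, and whether the animals were littermates, are not given in the sources used here.

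Most mammalian pseudogenes are processed: a messenger RNA was copied back into DNA and inserted elsewhere, without introns and without its own promoter. Abundant, short messages such as those of ribosomal proteins have left many copies. A young copy still matches its parent over long stretches, so a short read from one can fit the other equally well. A single differing base can then decide the locus to which an aligner assigns the read. The value of a copy may come from its own transcription, from reads of the parent's message or from a gene around it. These sources cannot be told apart in this table. The rule by which the authors counted reads with more than 1 position is not given in the sources used here.

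The libraries held an estimated 17.2 M to 20.1 M fragments, from the steps between small FPKM values. Fyco1 itself measured 5.399, 5.21 and 5.11 FPKM in WT and 4.61, 4.59 and 4.87 FPKM in the libraries labelled Fyco1-/-. The groups did not overlap but the gene was not called (limma adjusted p = 0.273), so its RNA level does not settle the genotype. The 6 markers of lens fibres (Cryaa, Cryba1, Crygc, Mip, Bfsp1 and Lim2) summed to at least 189852 FPKM in WT and 197192 FPKM in Fyco1-/-. Of 4 lens epithelium markers 2 fell, and their sum was 447 to 494 FPKM in WT and 380 to 408 FPKM in Fyco1-/-. The markers of macrophages and of cornea and skin were near 0, at no more than 1.04 FPKM summed over a list in any library. Muscle markers summed to 3.91 to 23.9 FPKM in WT and 1.02 to 2.09 FPKM in Fyco1-/-, and red blood cell markers to 72.6 to 176.6 FPKM and 97.2 to 230.6 FPKM, with 0 called in either list. The part of these cells in the values below was not tested, and in whole lenses fewer cells of a type and less RNA per cell cannot be told apart.

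By GENCODE M21, in which 176 members were found, 149 were processed or transcribed processed pseudogenes and 148 had a single exon. The median exon length was 534 bases. In all, 53 members lay within the span of a coding gene, on either strand. Whether reads of that gene entered their values was not tested. The other 12 members, 10 of them with clone names, were not found and have no parent or position here. In that release 5 members (0610012G03Rik, Gm11361, 4930426D05Rik, Frat1 and Gm10602) were not pseudogenes, so their deposited type went against the newer annotation. A parent gene was assigned by sequence to 156 members: the coding gene whose transcript matched best, at 80% identity or more over at least 50% of the copy. These were 124 parents. Median identity was 99.3%, and 28 copies were identical to the parent over the aligned bases. Parents that encode cytosolic ribosomal proteins accounted for 68 members and 48 genes. Among the 38 members with a parent that are named after a gene (Rps13-ps1 after Rps13), sequence gave the same gene in 33.

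The following stretches of 90 bases show how little separates selected copies from their parents. BC002163, Gm8210, Gm13841 and Gm6969 were called higher in Fyco1-/-. Rps13-ps1 was high in only part of those libraries and was not called. Tma7-ps and Gm6472, also called higher, are not shown. Each stretch runs 5′ to 3′ in the sense of the gene, lies in the parent's coding sequence and is taken from the GENCODE M21 transcripts. Capitals mark the bases that differ within a set. BC002163 lies at chr16:42955646-42955735 (plus strand), Gm8210 at chr1:43189156-43189245 (plus), Gm13841 at chr5:115802070-115802159 (minus), Gm6969 at chr12:24638702-24638791 (minus) and Rps13-ps1 at chr8:87048059-87048148 (plus), all in GRCm38. Rpl38-ps2, at chr6:140747083-140747172 (minus), is shown as a copy with no difference at all.
Ndufs5: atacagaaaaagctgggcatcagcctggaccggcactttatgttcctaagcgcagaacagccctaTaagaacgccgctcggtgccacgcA
BC002163: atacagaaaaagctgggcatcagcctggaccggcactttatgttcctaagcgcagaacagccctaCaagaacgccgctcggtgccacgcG
Rpl29: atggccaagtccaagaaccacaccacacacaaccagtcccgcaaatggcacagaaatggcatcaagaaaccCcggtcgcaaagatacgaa
Gm8210: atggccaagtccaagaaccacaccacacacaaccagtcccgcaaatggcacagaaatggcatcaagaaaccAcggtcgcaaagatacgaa
Gm13841: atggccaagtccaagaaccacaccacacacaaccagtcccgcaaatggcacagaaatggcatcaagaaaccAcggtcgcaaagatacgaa
Cox7a2l: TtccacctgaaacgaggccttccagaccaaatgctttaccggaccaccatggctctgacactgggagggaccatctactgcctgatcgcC
Gm6969: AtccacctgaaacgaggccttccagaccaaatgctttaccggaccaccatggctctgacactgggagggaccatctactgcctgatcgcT
Rps13: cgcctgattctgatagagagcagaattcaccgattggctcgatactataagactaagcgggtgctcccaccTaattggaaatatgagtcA
Rps13-ps1: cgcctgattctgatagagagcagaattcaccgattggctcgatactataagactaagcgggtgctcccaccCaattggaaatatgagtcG
Rpl38: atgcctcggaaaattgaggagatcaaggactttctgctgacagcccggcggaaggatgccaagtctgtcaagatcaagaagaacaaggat
Rpl38-ps2: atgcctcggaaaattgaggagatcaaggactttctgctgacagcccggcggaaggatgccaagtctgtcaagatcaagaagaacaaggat

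Over its whole length BC002163 differed from Ndufs5 at 2 of 319 bases. Gm8210 and Gm13841 each differed from Rpl29 at 3 of 483 bases, and every window of 100 bases, the length of a read, in either copy was also in the other. Rps13-ps1 differed from its parent at 2 of 522 aligned bases. Across the 173 members found in GENCODE M21 and long enough to hold such a window, the median member had 46.9% of its windows in the transcripts of other genes. In 43 members no window was shared and in 30 all were. The 23 members with every window in the parent had a median of 4.47 FPKM, and the highest of them, Rpl38-ps2, had 120.1 FPKM. The entries Gm10736, Gm10180 and Gm3699 are shorter than a read, at 75 to 78 bases.

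Levels were low. The median member measured 2.92 FPKM, 66 members lay between 1 and 2 FPKM, and 3 exceeded 100 FPKM. At the boundary, Gm12396, Gm10343 and RP23-323H18.3 were just inside at 1.017, 1.005 and 1.004 FPKM, and Gm6030, Gm12174 and Gm11868 just outside at 0.989, 0.986 and 0.983 FPKM. A typical member rested on an estimated 35.7 fragments per library. The coefficient of variation among WT libraries had a median of 33.2% for the 64 members with fewer than 20 fragments and 12.2% for the 35 with at least 100. All members together summed to 1701, 1538 and 1626 FPKM in WT and to 2290, 2422 and 2441 FPKM in Fyco1-/-. The Fyco1-/- sums all lay above those of WT, yet remained at most 0.322% of a library. These sums are no test, since 20 members had a WT mean under 1 FPKM and entered only through Fyco1-/-. The median log2 fold change of the members was 0.00.

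The entries highest in mean FPKM, Gm10736 and Gm10180, were copies of Rpl41, which encodes a very small protein of the large ribosomal subunit. Both are shorter than a read, and FPKM divides by length, so this is no ranking by fragments. Gm10736 measured 347, 282 and 356 FPKM in WT and 310, 263 and 278 FPKM in Fyco1-/-. Gm10180 measured 118, 125 and 133 FPKM in WT and 189, 143 and 136 FPKM in Fyco1-/-. Neither was called (limma adjusted p = 0.259 and 0.200), though Gm10736 passed without WT B (0.0277). Their parent measured 1230, 1218 and 1270 FPKM in WT and 1554, 1383 and 1408 FPKM in Fyco1-/-, and rose by 0.22 on the log2 scale (limma adjusted p = 0.0118), although not under quantile normalization (adjusted p = 0.385). Gm4204, a copy of the histone chaperone gene Nap1l1, stayed between 76.98 and 84.2 FPKM in all 6 libraries. Gm3788, a copy of the actin-binding gene Tmsb10, lay between 44.9 and 56.6 FPKM, with the genotypes overlapping.

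Set beside its parent, the median copy had 1.75% of the parent's FPKM in WT and 2.84% in Fyco1-/-. In WT, 10 of 156 members exceeded the parent assigned by sequence, among them Pisd-ps1 and Frat1, which is not a pseudogene in GENCODE M21. In Fyco1-/- 17 did, now including BC002163, Tma7-ps, Gm6969, Gm3650 and Gm11942. The difference between the genotypes is no test, since 20 of the 188 members had a WT mean under 1 FPKM. These entered only through Fyco1-/-, and Gm6969, Gm3650 and Gm11942 are among them. The level of a copy was no simple share of the parent's: Rps13-ps6, Rps13-ps1 and Rps13-ps2 share the parent Rps13, but measured 37.8, 3.26 and 3.92 FPKM on average in WT. Rps13-ps6 is the most divergent of them at 86.5% identity, shared no window with any other gene, and lies on the opposite strand within Bfsp1, a lens filament gene of 3258 FPKM. Whether its reads belong to Bfsp1 was not tested.

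**Figure D1:**
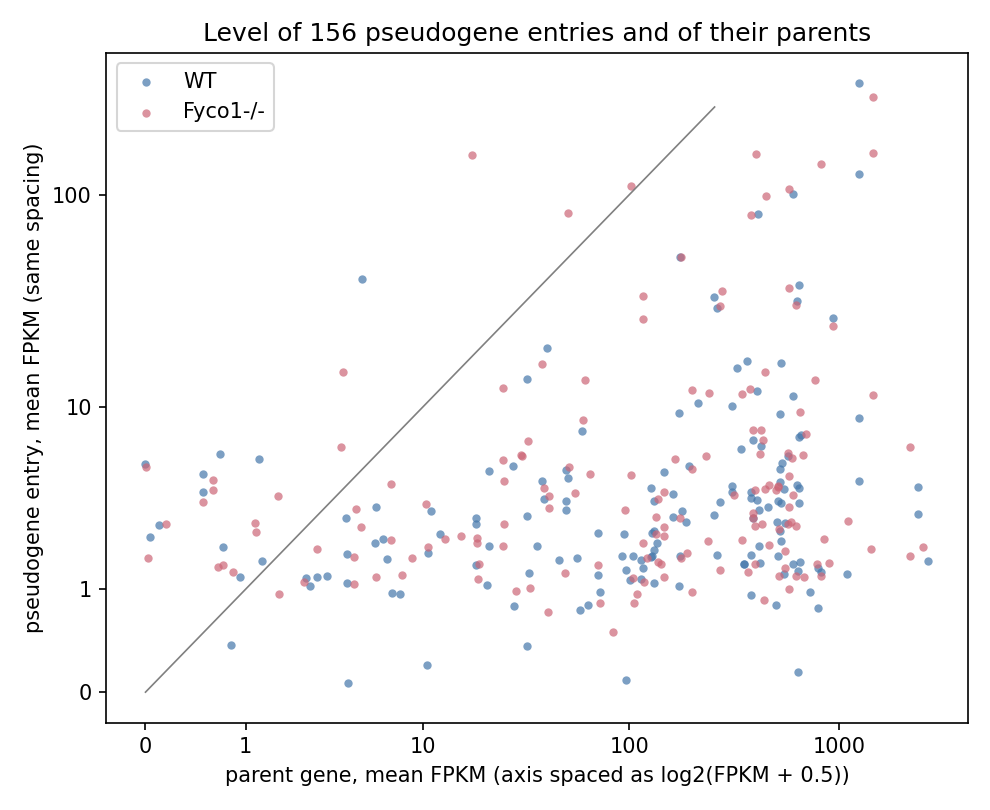
Mean FPKM of 156 pseudogene entries (vertical) against that of their parent genes (horizontal), with 1 point per entry and genotype and the line of equal level. Most points lie far below the line, at a median of 1.75% of the parent's level in WT.

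Between the genotypes 31 of the 188 members were called (16.5%) at an adjusted p under 0.05 by limma on log2(FPKM + 0.5), against 8.43% of the 12001 genes tested. All 3 Fyco1-/- values lay above or below all 3 of WT in 57 members (30.3%), near the 29.7% of all genes tested. Of the called members, 22 rose in Fyco1-/- (11.7% of members, against 3.42% of all genes) and 9 fell (4.79%, against 5.02%). Each of the 31 was free of overlap between the genotypes. Median-of-ratios scaling gave 24 and 9. Over all genes, 410 rose and 602 fell, a split that scaling turned to 627 and 483. The median log2 fold change of the members was 0.00, against -0.04 for all genes tested. In 31 members the mean of 1 genotype was under 1 FPKM, so that the other genotype carried them over the level, and 9 of the rises and 1 of the falls were among these. Of the 157 members with at least 1 FPKM in both genotypes, 13 rose and 8 fell (13.4%).

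**Figure D2:**
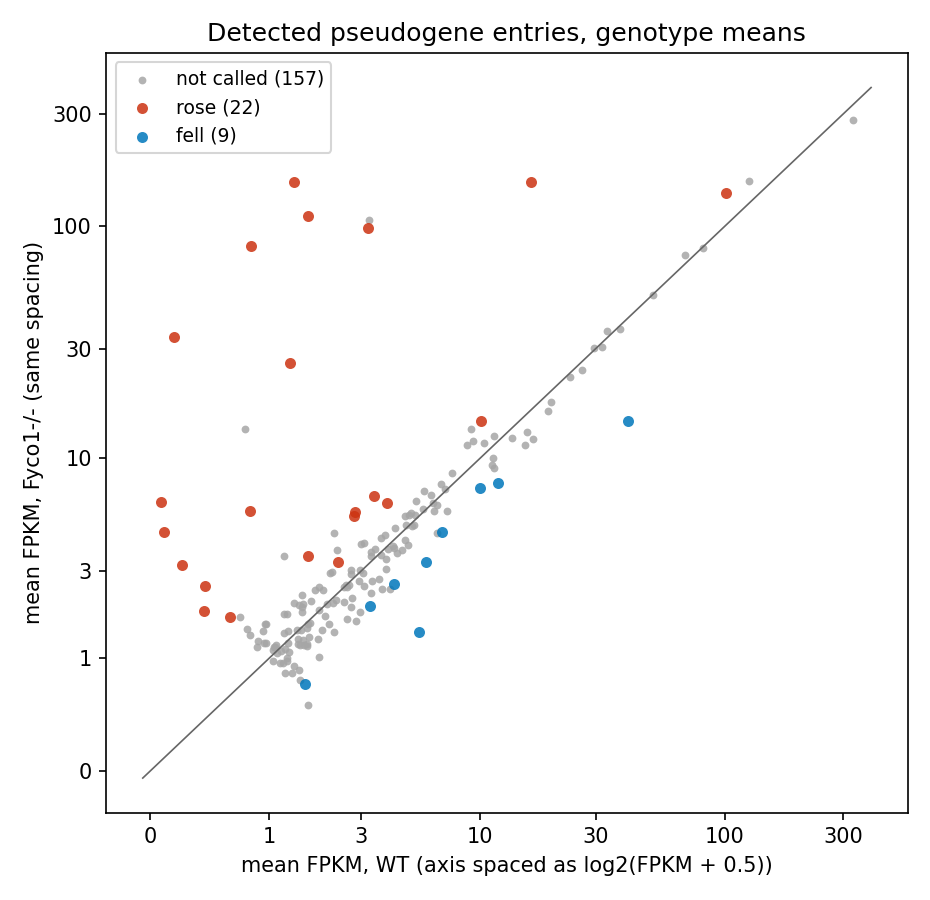
Mean FPKM of the 188 members in WT (horizontal) and in Fyco1-/- (vertical), with the line of equal level, coloured by the limma call. The 22 that rose reach much farther from the line than the 9 that fell.

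The rises were of unequal size: 11 members rose by a log2 fold change of at least 2, 3 by 1 to 2 and 8 by less than 1. Such steep rises were rare among all tested genes, at 18 (0.15%), of which these 11 were part. Of the 18, 12 carried the type pseudogene, and these include Gm11868, just outside the level of 1 FPKM. Of the 11, 6 had a WT mean below 1 FPKM and could enter only through Fyco1-/-, whereas 5 had at least 1 FPKM in both genotypes. All 11 had a measured parent, at 97.7% to 100% identity, and 24.0% to 100% of their windows lay in that parent. They lay on 10 chromosomes, none on chromosome 9, where Fyco1 lies. Their summed level was 20.4 FPM in WT and 358.9 FPM in Fyco1-/-, a description only, since they were chosen for their rise. FPM is FPKM times exon length in kilobases, so it counts fragments without regard to length. Of their 10 parents 6 fell, 0 rose and 4 were not called. Among all genes tested 5.02% fell and 3.42% rose, and of those with at least 100 FPKM 32.1% were called in either direction.

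BC002163 copies Ndufs5, a subunit of mitochondrial complex I. It measured 1.83, 1.249 and 1.08 FPKM in WT and 169, 138 and 153 FPKM in Fyco1-/-, a 111-fold difference of the means and a log2 fold change of 6.36 ± 0.14 (SE, limma adjusted p = 2.47e-07). Ndufs5 measured 110, 115 and 125 FPKM in WT and 6.32, 32.5 and 13.5 FPKM in Fyco1-/-. The parent's groups did not overlap, but its spread within Fyco1-/- was wide and the difference was not called (limma adjusted p = 0.0753); it was without Fyco1-/- B (0.02003) and, with all 6 libraries, without robust moderation (0.00325) or without the filter on low values (0.0203). Within Fyco1-/-, library A had the highest value of the copy and the lowest of the parent, and library B the reverse. In FPM the parent averaged 100.3 in WT and 15.0 in Fyco1-/-, and the copy 0.443 and 48.9, so that their sum was 100.8 ± 6.57 in WT and 63.9 ± 6.97 in Fyco1-/- (SD, n = 3).

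Rpl29, a protein of the large ribosomal subunit, had both of its detected copies among the steep rises. Gm8210 measured 0.121, 0 and 0.238 FPKM in WT, an estimated 3 fragments in all, and 34.2, 34.5 and 32.5 FPKM in Fyco1-/- (log2 fold change 5.80 ± 0.13, limma adjusted p = 4.87e-09). Gm13841 measured 1.57, 0.825 and 1.55 FPKM in WT and 23.5, 24.3 and 30.5 FPKM in Fyco1-/- (3.89 ± 0.18, limma adjusted p = 1.15e-05). Although every window of either copy is in the other, they differed in level in WT, where the 34 estimated fragments of Gm13841 stood against 3 of Gm8210. Rpl29 measured 627, 634 and 649 FPKM in WT and 115, 113 and 120 FPKM in Fyco1-/-, a 5.49-fold fall (limma adjusted p = 8.69e-11). Both copies together gained 28.2 FPM where the parent fell by 586 FPM, so the gain was 4.81% of the fall. Rpl29 lies on chromosome 9 at 106429454 to 106431568, and Fyco1 at 123789500 to 123851899 on the same chromosome.

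Gm6969 copies Cox7a2l, which helps respiratory complexes assemble into supercomplexes. It measured 0.513, 1.46 and 0.336 FPKM in WT and 64.5, 89.98 and 92.8 FPKM in Fyco1-/- (6.11 ± 0.36, limma adjusted p = 7.00e-04). Its parent fell from 63.6, 62.1 and 63.7 FPKM in WT to 49.3, 51.7 and 50.7 FPKM (limma adjusted p = 0.00115). Here the copy gained 27.9 FPM while the parent fell by 18.5 FPM, and the sum of both was higher in each Fyco1-/- library (94.95, 107.2 and 106.7) than in WT (94.2, 92.3 and 94.2). Tma7-ps copies Tma7, a small protein associated with the translation machinery. It measured 1.80, 0.766 and 2.36 FPKM in WT and 116, 115 and 100.1 FPKM in Fyco1-/- (5.77 ± 0.31, limma adjusted p = 5.35e-04). Tma7, on chromosome 9, went from 127, 135 and 124 FPKM to 103, 109 and 94.6 FPKM (limma adjusted p = 0.00632).

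Gm6472 copies Rps7 of the small ribosomal subunit, and Gm1821 copies Ubb, a polyubiquitin gene. Gm6472 measured 3.59, 3.75 and 2.38 FPKM in WT and 91.6, 100.4 and 103.6 FPKM in Fyco1-/- (4.75 ± 0.14, limma adjusted p = 1.33e-06). Rps7 fell from 542, 502 and 541 FPKM to 439, 452 and 451 FPKM (limma adjusted p = 0.00330), a call lost under median-of-ratios scaling (adjusted p = 0.0576). Gm1821 was already well above the other copies in WT, at 13.7, 15.6 and 19.4 FPKM, and reached 151, 157 and 156 FPKM in Fyco1-/- (3.23 ± 0.11, limma adjusted p = 2.21e-06). Ubb fell from 497, 569 and 526 FPKM to 397, 403 and 403 FPKM (limma adjusted p = 5.05e-04). Gm1821 gained 134.8 FPM while Ubb fell by 217.3 FPM, which left the pair at 905 ± 60.8 in WT and 822 ± 9.33 in Fyco1-/- (SD, n = 3).

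The remaining steep rises reached lower levels. Gm14150, a copy of the alpha-tubulin gene Tuba1b, rose from 0.130, 0.0372 and 0.0424 FPKM to 3.57, 4.58 and 5.79 FPKM, while Tuba1b fell by 0.57 on the log2 scale (limma adjusted p = 1.41e-04). Gm15801 copies Ptp4a1, a phosphatase gene, and went from 0.112, 0.286 and 0.110 FPKM to 2.64, 3.14 and 3.83 FPKM. Gm13835 copies Psma3, a subunit of the proteasome, and went from 0.683, 1.09 and 0.503 FPKM to 5.19, 6.50 and 5.61 FPKM. Both match their parent in every window, and neither parent was called (limma adjusted p = 0.935 for Ptp4a1 and 0.253 for Psma3). Gm3650, an unprocessed partial copy of Spg11, went from 0.157, 0 and 0 FPKM to 5.33, 6.10 and 7.61 FPKM, with Spg11 not called (limma adjusted p = 0.523). No WT value of any of these 4 reached the lowest Fyco1-/- value, but this follows largely from their choice as steep called rises. All 4 had a WT mean under 1 FPKM and entered only through Fyco1-/-.

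**Figure D3:**
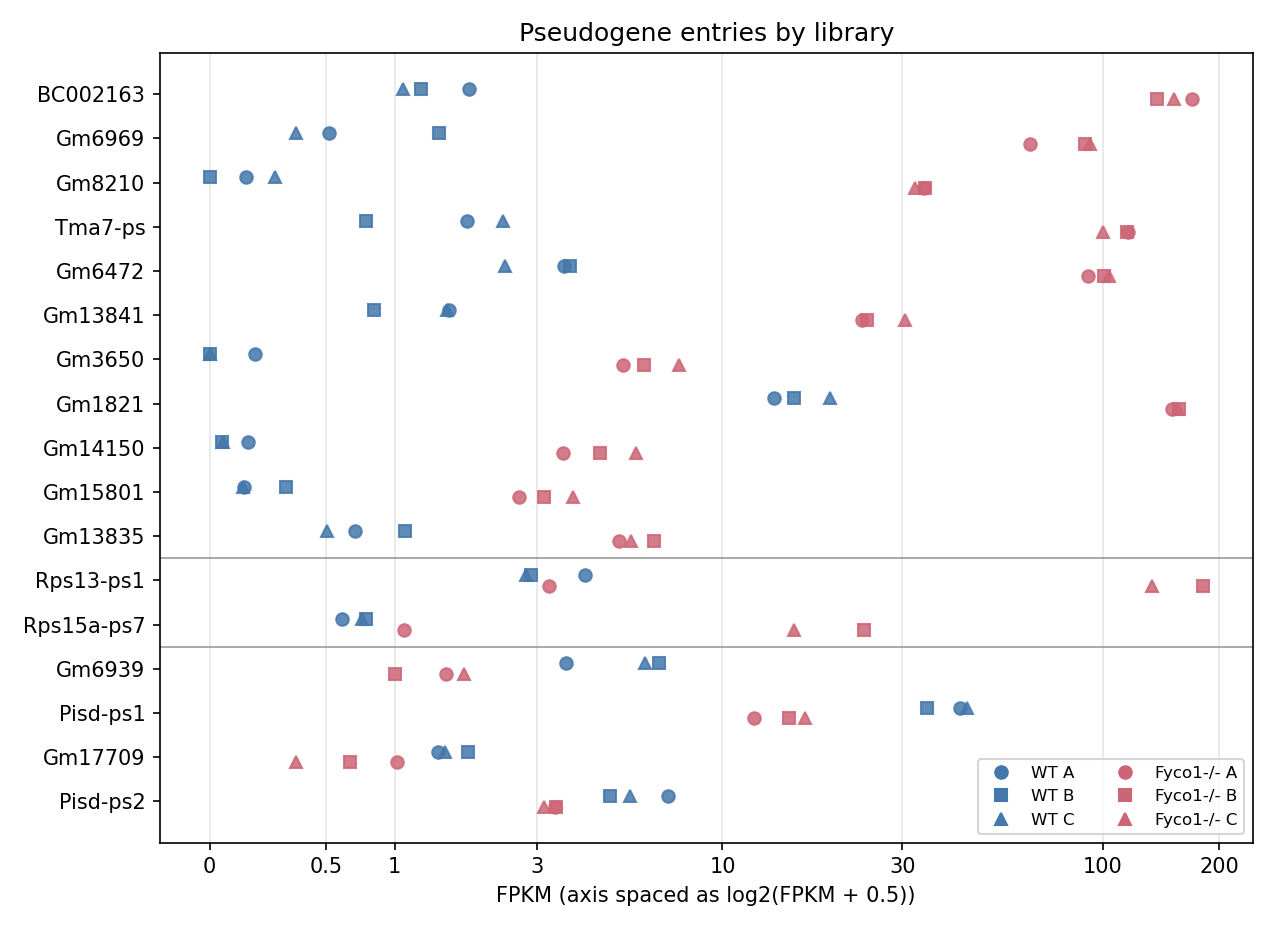
FPKM of single libraries (circles A, squares B, triangles C; blue WT, red Fyco1-/-) for the 11 steep rises, for Rps13-ps1 and Rps15a-ps7, and for the 4 largest falls. In the top group every red point lies right of every blue one. In the middle group Fyco1-/- A lies among WT for Rps13-ps1 and slightly above WT for Rps15a-ps7.

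A pair of further copies was high in only part of the Fyco1-/- libraries and was not called. Rps13-ps1, a copy of Rps13 of the small ribosomal subunit, measured 4.13, 2.87 and 2.77 FPKM in WT, but 181 and 134 FPKM in Fyco1-/- B and C, with 3.25 FPKM in A. Its log2 fold change of 3.60 had an SE of 1.77 (limma adjusted p = 0.316); without Fyco1-/- A it was 5.39 (adjusted p = 8.53e-05). Rps15a-ps7, a copy of another small subunit gene, measured 0.597, 0.762 and 0.732 FPKM in WT, but 23.8 and 15.6 FPKM in Fyco1-/- B and C, with 1.08 FPKM in A (limma adjusted p = 0.247, and 3.33e-06 without A). Rps13 showed the inverse order within Fyco1-/-, with 658 FPKM in A against 512 and 557 FPKM in the other two, and passed the test only without A (adjusted p = 0.00497). Rps15a stayed at 61.0, 60.8 and 61.9 FPKM. Among 12001 entries, 4 had both B and C above 3 times each of the other 4 libraries. The other two were Gm17482 and Gm10704, of coding type and chosen, like this pattern, after their values were seen. Gm17482 was listed at 0 in WT and in Fyco1-/- A, but at 8.53 FPKM in B and 7.67 FPKM in C, and was not called (limma adjusted p = 0.287). Gm10704 measured 0.0607, 0.0517 and 0 FPKM in WT and 0.660, 2.18 and 2.02 FPKM in Fyco1-/-. It was called (limma adjusted p = 0.00436), with Fyco1-/- A also above WT.

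**Figure D4:**
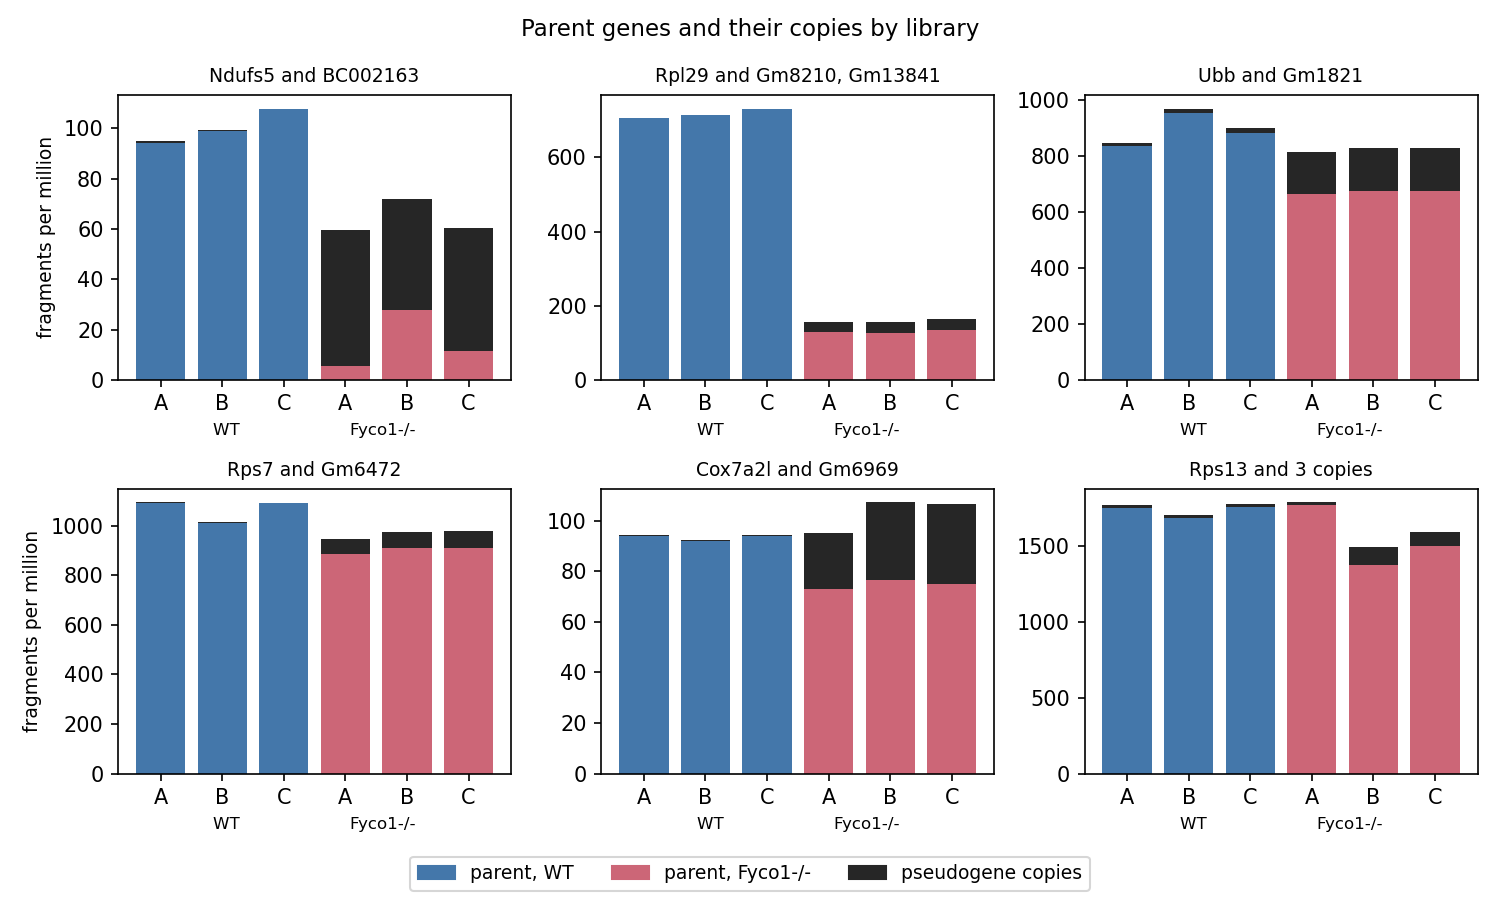
Estimated FPM of 6 parent genes (coloured) and their detected copies (black, stacked on top) in each library. The black part is thin in WT and larger in Fyco1-/-, except in Fyco1-/- A for Rps13. The height of the whole bar falls far for Rpl29 but little for Ubb or Rps7. Its mean falls from 100.8 to 63.9 FPM for Ndufs5 and rises from 93.6 to 103.0 FPM for Cox7a2l.

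The smaller rises fell into groups by the behaviour of the parent. In 3 pairs copy and parent rose together. Rpl38-ps2 measured 102, 99.1 and 103 FPKM in WT and 139, 132 and 146 FPKM in Fyco1-/- (0.45 ± 0.04, limma adjusted p = 2.22e-04), and Rpl38, identical to it over the copy, rose by 0.45 as well. Gm10443 rose by 0.53 and its parent Rps28 by 0.54, although the copy's call was lost without Fyco1-/- C (adjusted p = 0.0562). Gm6166 rose by 0.92 and its parent Fabp5, a fatty acid binding protein, by 0.66. In further pairs the parent fell while the copy rose. Of the 3 copies of Hmgb1, a chromatin protein, Gm15387 rose by 1.53 and Gm15750 by 0.89 while Hmgb1 fell by 0.39, and Gm13577 was not called (limma adjusted p = 0.801). The calls of Hmgb1 and Gm15750 were each lost when any library was left out except Fyco1-/- A for Hmgb1 and WT A for Gm15750, with adjusted p up to 0.0868 and 0.106. Gm13456 and Rpl3-ps1 rose by 0.62 and 0.90 while Eef1a1, the main elongation factor gene, and Rpl3 each fell by 0.12. Both of these parents lost their call under median-of-ratios scaling (adjusted p = 0.426 and 0.390) and when single libraries were left out (each of the 6 for Rpl3, all but WT B for Eef1a1).

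The other 4 rises had no called parent. Gm14506, a copy of the mitophagy receptor gene Bnip3, measured 3.60, 3.25 and 3.43 FPKM in WT and 5.44, 7.83 and 6.97 FPKM in Fyco1-/- (limma adjusted p = 0.00168). Gm11942 measured 0.170, 0.144 and 0.666 FPKM in WT and 3.69, 2.08 and 1.83 FPKM in Fyco1-/-. Zfp783, a zinc finger gene of 6848 exonic bases, rose by 0.43, and Gm7236 by 1.07. The call of Zfp783 was lost without any of the 6 libraries and that of Gm7236 without any except WT B and Fyco1-/- A, with adjusted p up to 0.131 for Zfp783 and 0.0694 for Gm7236.

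Copies of a common parent were not always called alike. Gm15387 and Gm15750 of the 3 copies of Hmgb1 rose, whereas Gm13577 was not called. The 3 of Rps13 differed in WT level, as given above, and none was called. Of the 4 copies of Rpl35a (Rpl35a-ps2, Gm10243, Gm27178 and Gm10029) and the 3 of Rpl13 (Gm15710, Gm12918 and Gm9670), proteins of the large subunit, none was called, and their means lay between 1.15 and 3.65 FPKM. At such low levels the lack of a call cannot tell whether these copies moved with the parent. Rpl35a itself rose by 0.16, a call lost when any library other than WT C or Fyco1-/- A was left out (adjusted p up to 0.0693), and Rpl13 was not called (limma adjusted p = 0.263). Gm12918, identical to Rpl13, measured 4.60, 2.98 and 3.61 FPKM in WT and 2.17, 2.25 and 2.90 FPKM in Fyco1-/-, and passed the test only without WT B (adjusted p = 0.0392). Rpl35a-ps2 and Gm10243, like the Rpl29 copies, hold each other's windows in full.

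Counted over all pairs in which both were called, 16 in number, the copy rose and the parent fell in 11, both rose in 3 (Rpl38-ps2, Gm10443 and Gm6166), both fell in 2 (Gm5345 and Gm17709), and in 0 did the copy fall while the parent rose. The count of 11 was 8 under median-of-ratios scaling and 7 to 9 with 1 library left out, and without WT B the copy fell while the parent rose in 1 pair. Both copies of Rpl29 and of Hmgb1 share a parent, and a copy and its parent may share reads, so the counts are a description. Over the 148 pairs with a sharing measure, the log2 fold changes of copy and parent had a Pearson r of -0.53 and a Spearman rho of 0.07. The points share libraries and, in part, reads. In the 30 members with all windows shared, the median gap between the log2 fold changes of copy and parent was 0.15, and in the 27 pairs with no window shared it was 0.39.

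**Figure D5:**
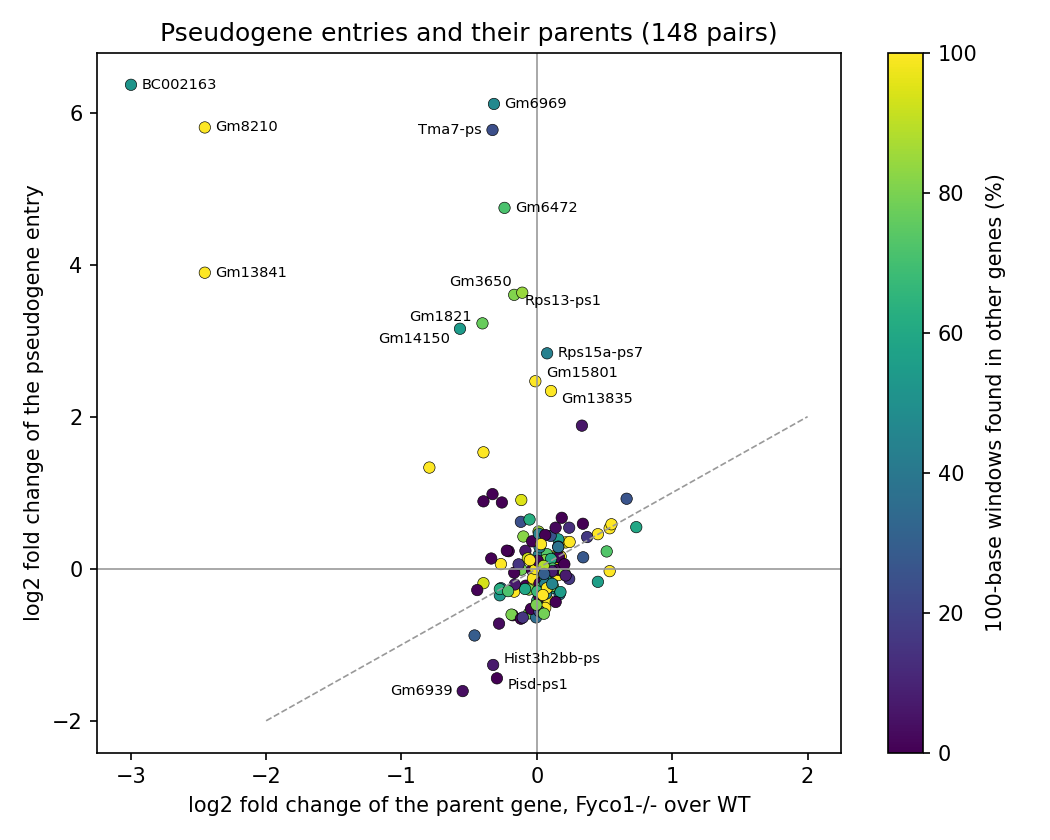
Log2 fold change (Fyco1-/- over WT) of 148 pseudogene entries against that of their parents, coloured by the share of the entry's 100-base windows found in other genes, with a dashed line of equal change. Most points gather near 0, and the steep rises stand above parents with changes at or below about 0.

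By the share of windows, steep rises were found in 0 of 43 members with none shared, 2 of 44 with under 50%, 5 of 56 with 50% to under 100%, and 4 of 30 with all shared. Members with under 10% of windows shared numbered 57, of which 4 rose and 5 fell (15.8%). The 9 calls were those of Gm14506, Gm15750, Gm11942, Pisd-ps1, Pisd-ps2, Gm6939 and Gm5345, which have a parent, and of Zfp783 and AA413626, for which no parent was found. The difference in steep rises between the classes was not tested.

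The 9 members that fell did so by 0.42 to 1.61 on the log2 scale. Pisd-ps1 measured 42.4, 34.7 and 44.2 FPKM in WT and 12.1, 15.1 and 16.6 FPKM in Fyco1-/-, a 2.77-fold difference (-1.44 ± 0.13, limma adjusted p = 3.76e-04). It had no window in another gene, and in both genotypes it stood above Pisd, which encodes the mitochondrial enzyme that makes phosphatidylethanolamine and measured 4.86, 4.34 and 5.33 FPKM in WT and 4.20, 4.09 and 3.30 FPKM in Fyco1-/-. Pisd was not called (limma adjusted p = 0.131). Pisd-ps2, which is named after the same gene but matched the zinc finger gene Zfp729a best (92.5% identity, parent not called, limma adjusted p = 0.354), fell from 7.11, 4.90 and 5.57 FPKM to 3.39, 3.42 and 3.14 FPKM (limma adjusted p = 0.00550). Gm6939, an unprocessed copy of the sulfotransferase gene Sult1a1 whose exons overlap Slx1b, fell from 3.66, 6.69 and 6.11 FPKM to 1.54, 1.01 and 1.77 FPKM (limma adjusted p = 0.00388).

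The other 6 falls were less stable. Gm5345 fell by 0.61 with its parent, the glycolytic gene Gapdh, which fell by 0.18, a call of Gapdh that median-of-ratios scaling removed (adjusted p = 0.111). Gm17709 fell by 0.88 and its parent Odc1, which encodes the first enzyme of polyamine synthesis, by 0.46. Gm12715, a copy of the actin gene Actg1, fell by 0.60, and Rps27a-ps2 fell by 0.59, with neither parent called (limma adjusted p = 0.0587 and 0.368). Gm9769 and AA413626, for which no parent was found, fell by 0.54 and 0.42. Each of these 6 calls was lost in at least 4 of the 15 other settings tried, with adjusted p-values up to 0.124, and leaving out a single library was enough: Fyco1-/- B for Gm5345, Gm17709, Gm12715, Rps27a-ps2 and AA413626, and WT A for all 6, with each of the other 4 doing so for at least 1 of them. Actg1 itself passed without Fyco1-/- A (adjusted p = 0.0308).

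Grouped by what the parent makes, the 68 copies of cytosolic ribosomal protein genes had 6 rises and 1 fall, or 10.3%, near the 8.43% of all genes. Their median log2 fold change was 0.02. Of the 48 parents 12 rose and 3 fell, with 12 and 1 under median-of-ratios scaling and 15 and 2 under quantile normalization. For comparison, 32.1% of all tested genes with at least 100 FPKM were called in either direction. Rps29, Rps28, Rpl38, Rplp1 and Rpl37 rose by 0.34 to 0.55, and Rpl29 fell by 2.45. The 8 copies of chromatin and nucleolar genes had 2 rises, both of Hmgb1. The 5 copies of cytoskeletal genes had 1 rise and 1 fall, and the 6 copies of translation factor genes 1 rise. The 3 copies of oxidative phosphorylation genes had 1 rise, Gm6969. The 1 copy of a glycolytic gene fell, and the 2 copies of a chaperone gene were not called. The 63 copies of genes outside these lists had 9 rises and 4 falls, and the 32 members without a parent 2 and 2. The 9 rises include BC002163, since the oxidative phosphorylation list held no Ndufs genes.

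Of the 120 parents tested 33 were called (27.5%), with 18 rises and 15 falls, or 20 and 10 under median-of-ratios scaling. Parents are abundant, with a median of 143.3 FPKM, and calls were frequent at such levels in general. Among genes of at least 100 FPKM 32.1% were called, and among the 68 parents of that level 35.3% were. At the level of most copies, 1 to 10 FPKM, 6.11% of tested genes were called, and 13.8% of the 152 members in that range were.

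In the authors' deposited table, 165 members had an adjusted p-value, and it was under 0.05 for 22. The log2 fold change there was above 0 in 19 and below 0 in 3, and all 22 were also called here. Both sets of calls came from the same libraries. The share of all entries under 0.05 in that column is not given here, so the counts are a description only.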

How the data were processed

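Total RNA of whole lenses was sequenced as read pairs of 100 bases, per the labels' protocols. Per the submitters' processing notes, alignment by the authors used STAR 2.5 on GRCm38 (mm10), HTSeq 0.6.1 gave the counts per gene, and FPKM values were deposited. The annotation, strand setting and treatment of reads with several positions are not given in the sources used here. The deposited p-value, adjusted p-value and log2 fold change columns came from the authors' DESeq2 run.

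The 12001 genes with a mean of at least 0.5 FPKM were tested with limma 3.58.1 (R 4.3.3). The model took log2(FPKM + 0.5), held genotype alone, and used robust moderation with a trend. Calls had a Benjamini-Hochberg adjusted p under 0.05 over all genes in a two-sided test. Fold changes given as log2 carry the pseudocount and understate low genes, whereas folds divide the mean FPKM of the genotypes. With 3 libraries against 3, exact permutation could reach no p below 0.1. The steps were tested on simulated data.

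Members were matched to GENCODE M21 by symbol. Parents came from blastn 2.17.0 against transcripts of coding genes, and windows of 100 bases were searched on both strands in transcripts, not in the genome. FPM, which is FPKM times exon length in kilobases, is approximate for genes with several transcripts. Depth was estimated from genes with 1 transcript, for which 90.8% to 92.3% of values of 1 to 8 fragments fell within 0.05 of a whole number (10% by chance). Since these depths are estimates, no counting intervals are given.

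The letters A, B and C were not treated as pairs in the main fit. Deviations from the genotype means correlated little between same-lettered libraries (-0.03, 0.03 and 0.03). This cannot show whether the letters mark a litter or a batch. The members, gene lists and rules for named genes were chosen with earlier results of these data known. Named were the 10 highest members, up to 10 called rises and 10 called falls whose groups did not overlap, 3 entries on each side of 1 FPKM, members that share a parent with at least 2 others, and the parents of these. The other genes named were chosen after their values were seen.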

Additional observations from a re-analysis of the deposited data

How the results depend on the processing

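Each alternative altered a single choice. The pseudocount was set to 0.1 or 1, the filter was dropped or set to 1 FPKM in 3 libraries, robust moderation was dropped, and libraries were rescaled by quantiles, by median-of-ratios or after removal of crystallins. Other fits added the replicate block or left out 1 library. The number of members called stayed within 1.5 times of 31, with 21 (no filter) to 35 (quantile normalization), and 25 to 36 with a library left out. Among members with under 10% of windows shared 9 of 57 were called, a smaller number by construction. With a level of 0.5 or 2 FPKM in place of 1, 37 of 325 and 26 of 122 were called, and 26 of the 157 whose exons overlap no other gene were. The count for members with at least 1 FPKM in both genotypes, 21, was added after seeing the data. For parents the count ran from 25 to 37, against 33, and was 28 of 101 at 95% identity or more. Over the whole table (all genes called, 1012) the filter mattered, with 568 calls without it, as did single libraries, with 607 to 863 calls when 1 was left out (612 without WT A, 607 without WT B, 673 without Fyco1-/- B, 642 without Fyco1-/- C). The replicate block gave 32 members, 31 parents and 929 genes, and removed among the named genes the calls of Rps27a-ps2 (adjusted p = 0.0624), Gm9769 (0.0540), Zfp783 (0.0734), Eef1a1 (0.101) and Rpl3 (0.104), and added that of Bnip3 (0.0189). The correlations of deviations of same-lettered libraries were -0.03, 0.03 and 0.03. All 11 steep rises were called under each of these settings, and no named gene reversed its direction as a call. The cause of the other changes was not tested.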
